A study of Mus musculus with 316 samples.

Results

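Lck-positive cells were compared with Lck-negative cells among single mouse cells that had been derived from embryonic stem cells and had then engrafted, labelled Eng_ES-HSC. Eng_ES-HSC held 49 of the 316 cells in the series. Cells 31 and 34 were averaged, as were cells 33 and 36, because their profiles were nearly identical, with a Pearson r of 0.99 and 0.97 over genes against 0.67 for the next closest pair. Of the 47 cells that remained, 13 had Lck at 1 TPM or more and were called Lck-positive, and 34 were called Lck-negative. TPM is a transcript abundance corrected for transcript length. The other groups were 78 embryonic stem cells (ESC), 94 fetal liver haematopoietic stem cells (FL_HSC) and 95 engrafted cells from bone marrow (Eng_BM-HSC). The series title concerns Notch activation and lymphoid potential of ESC-derived haematopoietic stem cells (HSC), the blood-forming cells, so the comparison asked whether the T-cell genes of the engrafted cells were found together or beside granulocyte genes. The labels gave no strain, genotype, age, culture, animal, host or time after transplantation for any group, and the sort used to collect the cells was not given in the sources used here.

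Lck is a Src family tyrosine kinase that sits on the Cd4 and Cd8 co-receptors. It phosphorylates the Cd3 chains and the zeta chain (Cd247) of the T-cell receptor, after which Zap70 docks there and passes the signal to Lat and Lcp2. It is a mark of thymocytes, T cells and natural killer cells, while neutrophil precursors are marked by granule proteins such as Elane and Mpo and by the calprotectin pair S100a8 and S100a9.

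Lck lies on chromosome 4 of GRCm38, from base 129548344 to 129573641 on the minus strand. Cd3g, Cd3d and Cd3e form a cluster of 40056 bases on chromosome 9, where the starts of Cd3g and Cd3d lie 1355 bases apart on opposite strands. The 250 bases before each start, taken from RefSeq on GRCm38.p6, are shown because these are the genes on which the comparison turns. Capitals mark GGAA, the core of the site bound by Ets factors, or its reverse complement TTCC.
Lck, upstream start, minus strand, chr4:129573642-129573891: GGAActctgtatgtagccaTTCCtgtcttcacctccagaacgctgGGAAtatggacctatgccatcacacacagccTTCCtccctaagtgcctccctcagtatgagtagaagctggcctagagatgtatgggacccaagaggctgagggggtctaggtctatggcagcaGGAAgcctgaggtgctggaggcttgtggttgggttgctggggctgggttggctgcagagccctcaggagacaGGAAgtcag
Lck, downstream start, minus strand, chr4:129558373-129558622: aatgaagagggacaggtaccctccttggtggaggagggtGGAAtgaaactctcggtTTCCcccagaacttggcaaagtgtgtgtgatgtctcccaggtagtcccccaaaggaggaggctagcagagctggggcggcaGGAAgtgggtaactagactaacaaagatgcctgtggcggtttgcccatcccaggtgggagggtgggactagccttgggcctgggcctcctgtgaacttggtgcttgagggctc
Cd3g, minus strand, chr9:44980432-44980681: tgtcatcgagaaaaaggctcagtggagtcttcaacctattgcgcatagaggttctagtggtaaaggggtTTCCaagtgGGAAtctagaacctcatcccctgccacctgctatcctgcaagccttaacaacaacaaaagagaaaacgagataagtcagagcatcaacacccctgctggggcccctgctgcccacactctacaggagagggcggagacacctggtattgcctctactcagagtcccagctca
Cd3d, plus strand, chr9:44981536-44981785: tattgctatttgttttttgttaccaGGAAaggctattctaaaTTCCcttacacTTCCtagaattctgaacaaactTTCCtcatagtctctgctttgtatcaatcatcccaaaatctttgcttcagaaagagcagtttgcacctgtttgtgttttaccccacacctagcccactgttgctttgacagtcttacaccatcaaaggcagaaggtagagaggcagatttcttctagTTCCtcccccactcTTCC
Cd3e, minus strand, chr9:45009612-45009861: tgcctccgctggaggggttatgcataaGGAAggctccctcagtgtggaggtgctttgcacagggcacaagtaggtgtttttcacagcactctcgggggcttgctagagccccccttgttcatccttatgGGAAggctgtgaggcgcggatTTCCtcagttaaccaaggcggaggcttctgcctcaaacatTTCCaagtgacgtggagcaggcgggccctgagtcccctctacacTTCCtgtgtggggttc

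The core was found 6 times before the upstream Lck start and 6 times before Cd3d, 5 times before Cd3e, 3 times before the downstream Lck start and 2 times before Cd3g. Among 32851 RefSeq promoter windows of the same length, 93.4% held at least 1 match, the median was 3 and 8.69% held 6 or more. TGTGGT, the letters of a Runx site searched on both strands, was found before the upstream Lck start and in none of the other 4 windows, against 14% of all windows. GATAAG, the letters of a site for Gata factors, was found before Cd3g alone, against 6.55% of windows. These matches describe letters and not binding.

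Lck stood at 3578 TPM in cell 9, 1773 in cell 11, 1316 in cell 37, 1309 in cell 49 and 1177 in cell 21. It stood at 272 TPM in cell 22, 234 in cell 8, 84.2 in cell 33, 37.9 in cell 20 and 14.3 in cell 25. In the lowest 3 Lck-positive cells it stood at 5.28 TPM in cell 12, 3.38 in cell 26 and 1.53 in cell 1. All 34 Lck-negative cells were listed at 0, so no cell lay between 0 and the threshold, and the same cells were chosen by any value above 0. The Lck levels chose the cells and are given as a description.

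Every sample is a single cell, and no label ties cells to animals or cultures, so Eng_ES-HSC counts as 1 sample. No test was possible, and values below are differences of mean log2(TPM + 1) over cells, Lck-positive minus Lck-negative, with exact Clopper-Pearson 95% intervals on shares of cells that cover counting error only. TPM keeps no sequencing depth, so the depth of each cell is unknown. A gene was called detected at 1 TPM or more. The Lck-positive cells had a median of 1068 detected genes, from 745 to 3357, and the Lck-negative cells had a median of 816, from 201 to 3970. The part of gene number in the results was not tested, but list medians and many of the gene differences are also given against 13 Lck-negative cells matched on gene number, with a median of 999 genes. The mitochondrial share of TPM had a median of 14.8% in Lck-positive and 23.6% in Lck-negative cells, and cells 8 and 20 stood at 77% and 76%.

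Several genes that define haematopoietic stem cells were not found. Of 26 HSC genes, Meis1, Erg, Procr, Fgd5, Prdm16 and Esam were listed at 0 in all 47 cells. Hlf was detected in 3 Lck-negative cells and no Lck-positive cell, and the stem cell factor receptor Kit was detected in 1 Lck-positive and 4 Lck-negative cells. Other members of the list were detected: Ctla2a in 8 of 13 and 12 of 34 cells, with a difference of 2.18 that was the only one past 1 log2 unit, Ly6a in 3 and 9 cells, Lmo2 in 3 and 6, Myb in 3 and 7 and Runx1 in 3 and 5. The cells are therefore called here by the Lck rule and by their leading genes.

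T-cell genes were found with Lck in part of the cells. The Cd3 chains, which carry the signal of the T-cell receptor, included the 2 T-cell genes most often detected beside Lck, Cd3d in 9 and Cd3e in 7 of 13 cells, while Cd3g, Cd2 and Il2ra were each detected in 6. At least 3 T-cell genes other than Lck were held by all 13 Lck-positive cells and by 18 of 34 Lck-negative cells (52.9%, 35.1 to 70.2). Granulocyte genes were not confined to the Lck-negative cells: 9 of 13 Lck-positive cells and 26 of 34 Lck-negative cells held at least 3 of them. Of 58 measured T-cell genes other than Lck, from 4 lists joined, 12 were higher by at least 1 log2 unit and none were lower, with a median difference of 0.50. Over all 21969 other mouse gene rows, 3.04% were higher by that much and 0.847% were lower. Over the 7330 rows with a mean of 1 TPM or more in either set of cells, the shares were 9.11% and 2.54%, and the median difference was 0.14.

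**Figure D1:**
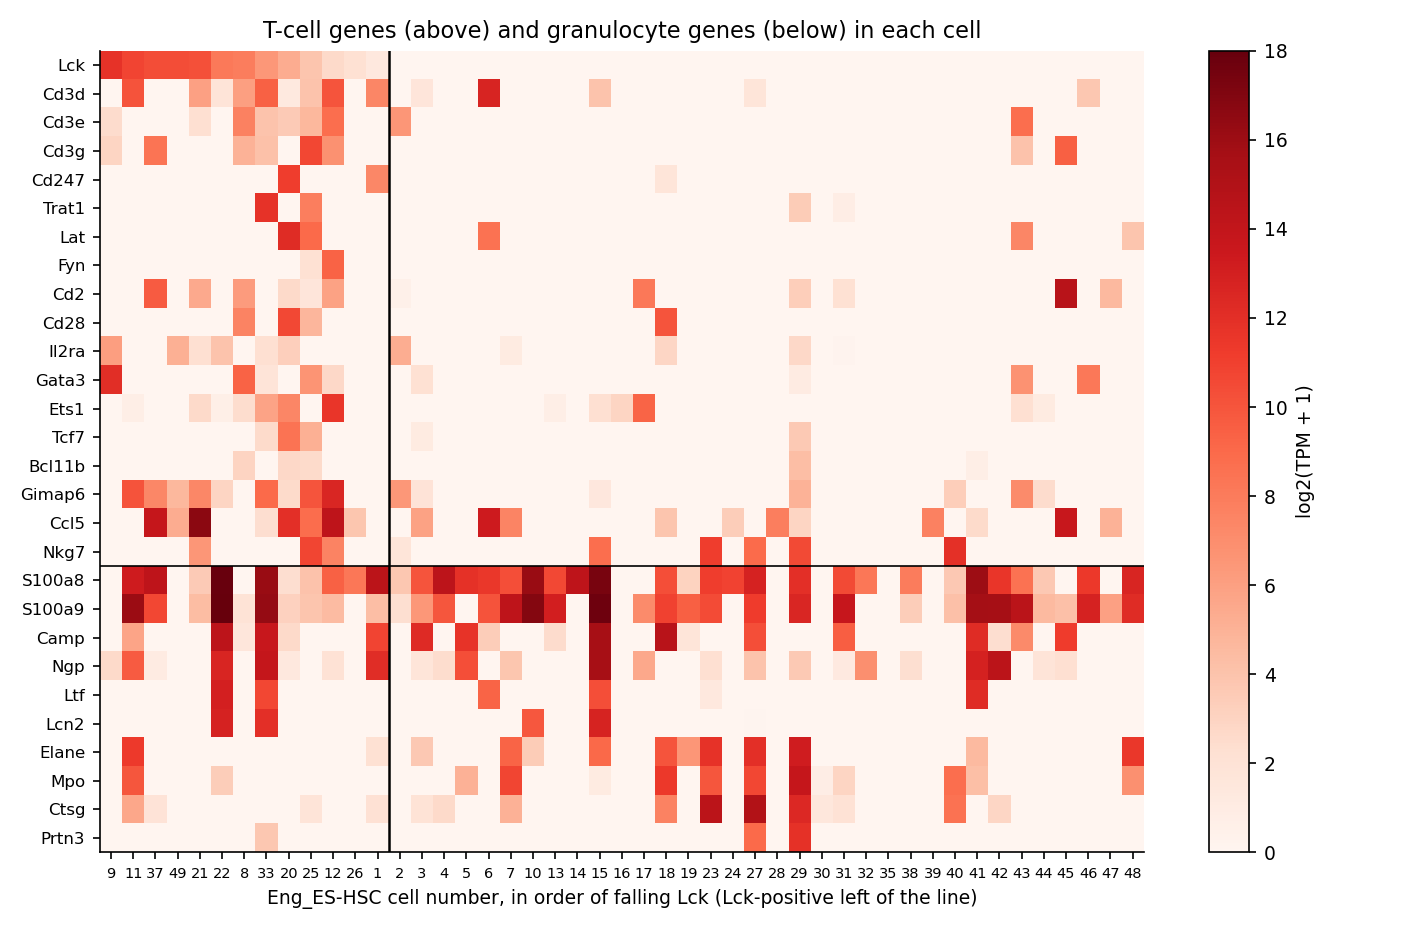
Level of Lck, 17 T-cell or lymphocyte genes and 10 granulocyte genes (rows) in each of 47 Eng_ES-HSC cells (columns), as log2(TPM + 1), with Lck falling from left to right and the granulocyte genes below the horizontal line. The Cd3 genes lie mostly left of the vertical line that ends the 13 Lck-positive cells, while S100a8 and S100a9 run across it.

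Cd3d stood at 1108 TPM in cell 11, 1019 in cell 12, 669 in cell 33, 173 in cell 1, 63.1 in cell 8 and 59.6 in cell 21, and it was at 14.9, 2.46 and 1.48 TPM in cells 25, 22 and 20. It was thus detected in 9 of 13 Lck-positive cells (69.2%, 38.6 to 90.9) and 5 of 34 Lck-negative cells (14.7%, 4.95 to 31.1). The highest single value, 6501 TPM, was in Lck-negative cell 6, so the ranges overlapped. The difference was 3.61, and it was 3.07 against matched cells, of which 3 of 13 had Cd3d.

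Cd3e, the chain most widely used to mark T cells, stood at 425 TPM in cell 12, 210 in cell 8, 24.1 in cell 25, 14.7 in cell 33, 10.9 in cell 20, 4.57 in cell 9 and 3.66 in cell 21. Those 7 of 13 cells compare with 2 of 34 Lck-negative cells, cell 43 at 424 TPM and cell 2 at 88.6 TPM. The difference was 2.12, and 1.89 against matched cells.

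Cd3g stood at 1640 TPM in cell 25, 342 in cell 37, 111 in cell 12, 30.1 in cell 8, 16.4 in cell 33 and 6.41 in cell 9. Among Lck-negative cells it was found in cell 45 at 703 TPM and in cell 43 at 15.1 TPM. The difference was 2.52, and 1.88 against matched cells. At least 2 of the 3 Cd3 genes were detected in 7 of 13 Lck-positive cells (53.8%, 25.1 to 80.8) and in 1 of 34 Lck-negative cells (2.94%, 0.0744 to 15.3). All 3 were detected in cells 8, 33, 25 and 12, and in none of 34 Lck-negative cells, which allows a share of up to 8.82%. Cells 49 and 26 were the Lck-positive cells with none of the 3.

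Of the other receptor genes, Cd247 was detected in cell 20 at 2277 TPM and cell 1 at 159 TPM, against 1 Lck-negative cell at 2.28 TPM. Trat1, an adaptor that binds the receptor complex, was detected in cell 33 at 3586 TPM and cell 25 at 231 TPM, against 1 Lck-negative cell at 10.1 TPM. Their differences of 1.37 and 1.39 each rested on 2 cells and came to 0.56 and 0.53 without the leading cell. Ptcra, the pre-T-cell receptor alpha chain of immature thymocytes, was detected in 5 of 13 and 10 of 34 cells, with a difference of 0.05. In all, 5 of 6 receptor genes were past 1 log2 unit, with a median of 1.75 and of 1.58 against matched cells.

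The kinases and adaptors that act directly after Lck were mostly low. Of 18 measured signalling genes, Lat alone was past 1 log2 unit, at 1.05, with 4782 TPM in cell 20 and 500 TPM in cell 25. It was also held by 3 Lck-negative cells, up to 379 TPM, and the difference was 0.40 against matched cells and 0.16 without cell 20. Zap70, the kinase that docks on the chains Lck phosphorylates, was listed at 0 in all 47 cells, as were Txk and Sh2d1a. Fyn, the other Src family kinase of T cells, was found in cell 12 at 631 TPM and cell 25 at 3.49 TPM and in no Lck-negative cell. The median over the 18 genes was 0.32, and 0.16 against matched cells.

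Among 20 surface receptors, Cd2, Cd28 and Il2ra were past 1 log2 unit. Cd2, an adhesion receptor of T and natural killer cells, stood at 829 TPM in cell 37, 75 in cell 8, 57 in cell 12, 43.5 in cell 21, 5.11 in cell 20 and 2.14 in cell 25. Lck-negative cell 45 held 24936 TPM of it, more than any Lck-positive cell. Its difference was 1.44, falling to 0.25 against matched cells, and it turned to -3.24 when log2 was taken of the mean TPM. Cd28, the co-stimulatory receptor, stood at 1518 TPM in cell 20, 190 in cell 8 and 25.9 in cell 25, against 1035 TPM in Lck-negative cell 18. Its difference was 1.47, and it was 0.99 against matched cells and 0.73 without cell 20. Without cell 37 the Cd2 difference was 0.84. Il2ra, the interleukin 2 receptor alpha chain, was detected in 6 of 13 and 4 of 34 cells, never above 66.9 TPM, with a difference of 1.40 (1.31 against matched cells). The co-receptors to which Lck binds were rare: Cd4 reached 549 TPM in cell 37, Cd8a was detected in cells 21 and 25 at 13.6 and 1.59 TPM, and Cd8b1 was detected in 4 of 13 and 2 of 34 cells. The list had a median of 0.68, and of 0.33 against matched cells.

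Of 14 transcription factors, Gata3, Ets1 and Tcf7 were past 1 log2 unit. Gata3, needed for T-cell commitment and used again in helper cells, stood at 4246 TPM in cell 9, 642 in cell 8, 96.7 in cell 25, 5.68 in cell 12 and 2.55 in cell 33. Lck-negative cells held up to 291 TPM of it, in 4 of 34 cells, and the difference was 1.97 (1.74 against matched cells). Ets1 reached 3062 TPM in cell 12 and 172 TPM in cell 20, with a difference of 1.86 (1.38 against matched cells) and detection in 5 of 13 and 5 of 34 cells. Tcf7, a Notch target of early thymocytes, stood at 358 TPM in cell 20, 34 in cell 25 and 5.06 in cell 33, with a difference of 1.11 that was 0.89 against matched cells and 0.51 without cell 20. Bcl11b, the commitment factor, was detected in cells 8, 20 and 25 at no more than 6.88 TPM and in Lck-negative cell 29 at 18.7 TPM. Foxp3, the factor of regulatory T cells, stood at 3105 TPM in cell 37, the cell that also held Cd4, and at no more than 12.8 TPM in 2 Lck-negative cells. Tbx21 and Id3 were listed at 0 in all 47 cells.

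The T-cell genes were unevenly spread over the Lck-positive cells, and not in the order of Lck. Cells 25, 33, 20, 12, 8 and 21 held 24, 22, 19, 16, 12 and 10 T-cell genes other than Lck. The 4 cells with the highest Lck held 6, 3, 5 and 7. Among Lck-negative cells, cell 29 alone reached 10 or more, with 17 T-cell genes among 3331 detected genes, and the median was 3 against 7 in Lck-positive cells. Over all 47 cells, Spearman's rho was 0.47 between Lck and the number of T-cell genes and -0.00 between Lck and the number of granulocyte genes. The number of T-cell genes also followed the number of genes detected, with a rho of 0.74, and that of granulocyte genes did so with a rho of 0.50. T-cell and granulocyte gene numbers had a rho of 0.33 with each other. These correlations describe cells whose labels share 1 library code and carry no test.

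**Figure D2:**
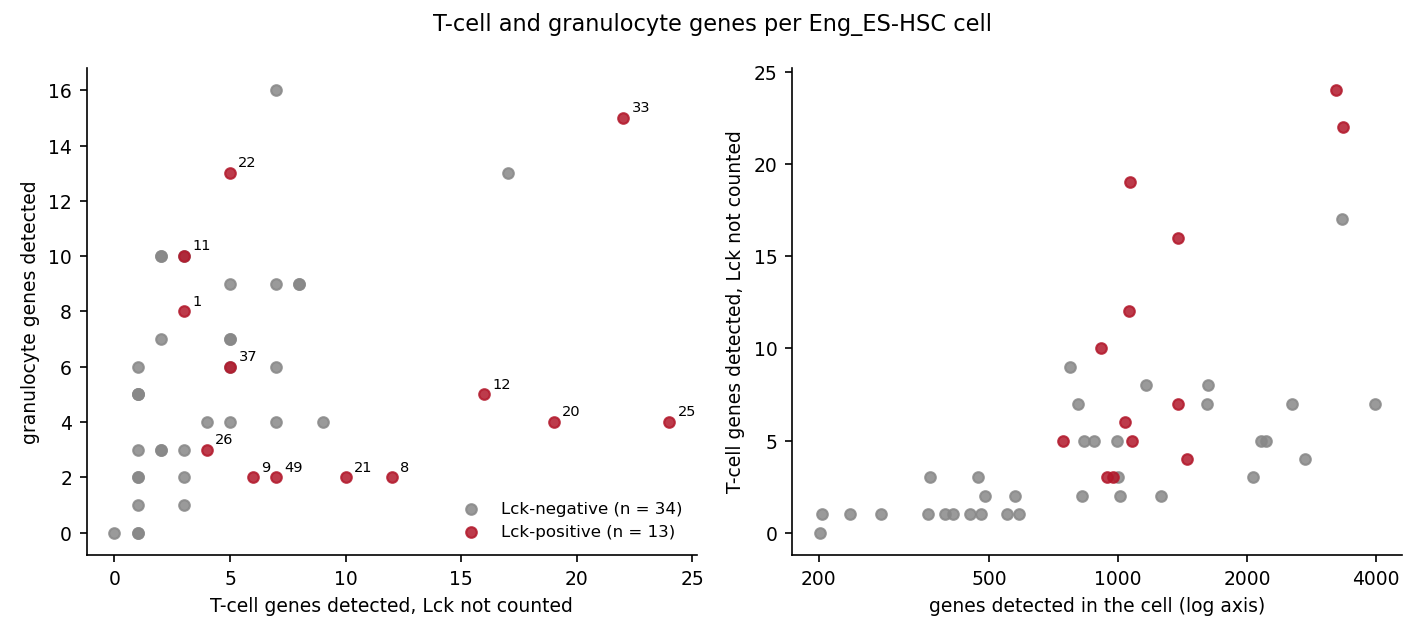
Number of T-cell genes other than Lck detected in each Eng_ES-HSC cell against the number of granulocyte genes (left) and against all genes detected (right, log axis), with 13 Lck-positive cells in red, numbered in the left panel, and 34 Lck-negative cells in grey. Cells 8, 12, 20, 21 and 25 held 10 to 24 T-cell genes with 2 to 5 granulocyte genes, cell 33 held many of both, and cells 1, 11 and 22 held 8 to 13 granulocyte genes with 3 to 5 T-cell genes.

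Read by cell, both kinds of gene, at 3 or more each, were found in 9 of 13 Lck-positive cells (69.2%, 38.6 to 90.9) and 16 of 34 Lck-negative cells (47.1%, 29.8 to 64.9). These counts do not weigh levels. T-cell and granulocyte genes summed to 10491 and 20.7 TPM in cell 20 and to 31.6 and 537354 TPM in cell 22. The T-cell sum was the larger in 7 of 13 Lck-positive cells (53.8%, 25.1 to 80.8) and 7 of 34 Lck-negative cells (20.6%, 8.70 to 37.9). More T-cell than granulocyte genes were detected in 9 of 13 and 9 of 34 cells. At least 3 T-cell genes with fewer than 3 granulocyte genes were found in 4 Lck-positive cells (30.8%, 9.09 to 61.4) and 2 Lck-negative cells (5.88%, 0.720 to 19.7). The 4 were cells 8, 9, 21 and 49, each with 2 granulocyte genes detected. At least 3 granulocyte genes with fewer than 3 T-cell genes were found in none of the 13, which allows up to 23.1%, and in 10 of 34 (29.4%, 15.1 to 47.5). Among matched Lck-negative cells, all 13 held 3 or more granulocyte genes and 76.9% held 3 or more T-cell genes.

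The calprotectin subunit S100a8 stood at 238144 TPM in cell 22, 70447 in cell 33, 21056 in cell 1, 19213 in cell 37 and 10005 in cell 11. It was at 661 TPM in cell 12 and 304 TPM in cell 26, between 4.04 and 15.2 TPM in cells 20, 21 and 25, and listed at 0 in cells 8, 9 and 49. In Lck-negative cells the lowest value was 0, the median 1289 TPM and the highest 161458 TPM. The sets overlapped over almost all of their range, and the difference was -0.12 (-1.05 against matched cells). S100a8 at 1000 TPM or more was found in 5 of 13 Lck-positive cells (38.5%, 13.9 to 68.4) and 19 of 34 Lck-negative cells (55.9%, 37.9 to 72.8). Of the 8 Lck-positive cells with Cd3e or Cd3g, 2 had S100a8 at that level, cells 33 and 37. None of the 3 Lck-negative cells with Cd3e or Cd3g did. Their granulocyte genes still summed to 22508 TPM in cell 43, 4335 TPM in cell 45 and 3108 TPM in cell 2.

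Granulocyte genes differed in both directions. Of 24, 3 were higher and 4 were lower by at least 1 log2 unit, with a median of 0.03. Against matched cells 3 were higher and 8 were lower and the median turned to -0.15. Over all 21969 other mouse gene rows, 615 were higher and 553 were lower against matched cells. Among cells with at least 1000 genes the granulocyte median was -0.49, beside -0.72 for the 12 housekeeping genes. There, 621 of all gene rows were higher and 1448 were lower. The 4 lower genes were Elane, Mpo, Ctsg and S100a9. Elane, neutrophil elastase, was detected in cell 11 at 2619 TPM and cell 1 at 3.46 TPM, and in 11 of 34 Lck-negative cells up to 9338 TPM, a difference of -1.75. Mpo, myeloperoxidase, was detected in cells 11 and 22 at 998 and 9.47 TPM and in 11 of 34 Lck-negative cells up to 14566 TPM, a difference of -1.51. Ctsg, cathepsin G, was detected in 4 and 11 cells with maxima of 46.6 and 31259 TPM, a difference of -1.31. Against matched cells these 3 differences were -3.21, -3.06 and -3.23, with each gene in 6 of 13 matched cells. Prtn3, proteinase 3, was detected in 1 of 13 and 2 of 34 cells and differed by -0.32 (-1.31 against matched cells).

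S100a9, the other calprotectin subunit, was lower by 1.23 on the log2 scale, with a median of 18.6 TPM in Lck-positive and 426 TPM in Lck-negative cells, although its means ran the other way, at 31265 and 15421 TPM. The S100a9 difference was -3.95 against matched cells and -3.82 among cells with at least 1000 genes, and leaving out 1 Lck-positive cell moved it between -2.19 (without cell 22) and -0.69 (without cells 9, 26 or 49, each alone). The 3 higher genes were Pglyrp1, Ngp and Lcn2. Pglyrp1, a peptidoglycan-binding protein, was detected in 5 of 13 and 5 of 34 cells, a difference of 2.20 (1.92 against matched cells and 0.94 among cells with at least 1000 genes). Ngp, neutrophilic granule protein, was detected in 8 of 13 and 16 of 34 cells, a difference of 1.59 that was 0.79 without cell 33. Lcn2, an iron-binding protein of neutrophil granules, was detected in cells 22 and 33 at 7464 and 4143 TPM and in 2 Lck-negative cells, a difference of 1.24 that was 0.33 without cell 22. The granule proteins Ltf and Camp differed by 0.84 and 0.37, and by 0.06 and -2.67 against matched cells. Without cell 22 the median over the 24 genes was -0.28, and without cell 33 it was -0.24.

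Cytotoxic and natural killer genes were represented mainly by Ccl5, a chemokine of activated T and natural killer cells. Ccl5 stood at 101790 TPM in cell 21, 19624 in cell 12, 14143 in cell 37, 4144 in cell 20 and 450 in cell 25, and at 37.8, 13.2 and 4.06 TPM in cells 49, 26 and 33. It was detected in 8 of 13 (61.5%, 31.6 to 86.1) and 11 of 34 cells (32.4%, 17.4 to 50.5), where it reached 13134 TPM in cell 45. The difference was 3.76, and 2.67 against matched cells. Gzmb, granzyme B, stood at 1244 TPM in cell 37 and 286 TPM in cell 21, against 784 TPM in Lck-negative cell 40. Prf1, Gzma and the natural killer receptor Ncr1 were listed at 0 in all 47 cells. Tyrobp, an adaptor shared by natural killer and myeloid cells, led in cells 22, 26 and 33 at 8751, 7964 and 3289 TPM. Of 18 genes in the list, 3 were past 1 log2 unit and the median was 0.00. The Gzmb difference of 1.12 was 0.38 without cell 37, and the Tyrobp difference of 1.33 was 0.50 without cell 22.

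Markers of other blood cells were read beside these values, and their part in the results was not tested. Of 18 B-cell genes none were past 1 log2 unit in either direction, and Cd79a, Cd79b and Ms4a1 were listed at 0 in all 47 cells. The summed TPM of the 18 ran from 2.55 to 469 in Lck-positive cells and from 4.64 to 467 in Lck-negative cells. Most of it was Ebf1, a B-cell transcription factor, detected in all 47 cells at 2.55 to 434 and 2.14 to 467 TPM, with a difference of -0.92. Of 16 monocyte and macrophage genes, 4 were higher, namely Ccr2 (3.0), Ctss (1.93), Ms4a6c (1.38) and Lyz2 (1.34). The list median was 0.58, and it was 0.56 against matched cells and 0.67 among cells with at least 1000 genes. The 58 T-cell genes stood at 0.50, 0.28 and 0.31 in the same settings, so a rise with Lck was not particular to T-cell genes. The summed TPM of the monocyte and macrophage list ran from 0.49 to 38143 against 0 to 27544. Ccr2, a chemokine receptor of monocytes that activated T cells also use, was detected in 7 of 13 and 4 of 34 cells. Without cell 26 the differences were 2.33 for Ccr2, 0.98 for Ctss, 0.55 for Ms4a6c and 0.58 for Lyz2, so that of these 4 only Ccr2 stayed past 1 log2 unit.

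Cell 26 stood apart among the Lck-positive cells. It held Lck at 3.38 TPM, 4 T-cell genes, no Cd3 gene and a summed T-cell TPM of 20.7, the lowest of the 13. It led the Lck-positive cells in the class II genes H2-Ab1 (27040 TPM), Cd74 (18593), H2-Eb1 (12999) and H2-Aa (11146) and in Lyz2 (16573), Ctss (12896), Ccr2 (2642) and Csf1r (790), genes of macrophages and dendritic cells. H2-Ab1, H2-Aa, H2-Eb1 and Cd74 were detected in no other Lck-positive cell, and their differences of 0.95 to 1.13 fell to between -0.08 and 0.00 without it.

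Erythroid genes were lower in Lck-positive cells, where 5 of 14 were past 1 log2 unit downward and none upward. The adult globin Hba-a2 was detected in 7 of 13 and 24 of 34 cells, with medians of 9.31 and 2397 TPM and a difference of -4.20. Hba-a1, Hbb-bs and Hbb-bt differed by -3.56, -3.30 and -2.20, and the carbonic anhydrase Car2 by -1.77. The differences against matched cells were -5.31 for Hba-a2 and -4.87 for Hbb-bs. Cells 1, 11 and 37 held the most Hba-a2 of the Lck-positive cells, at 17097, 5908 and 5815 TPM, and are 3 of the 5 with S100a8 at 1000 TPM or more. Klf1 and Gata1, the regulators of red cell development, were detected in 0 of 13 Lck-positive cells and in 1 and 2 Lck-negative cells.

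**Figure D3:**
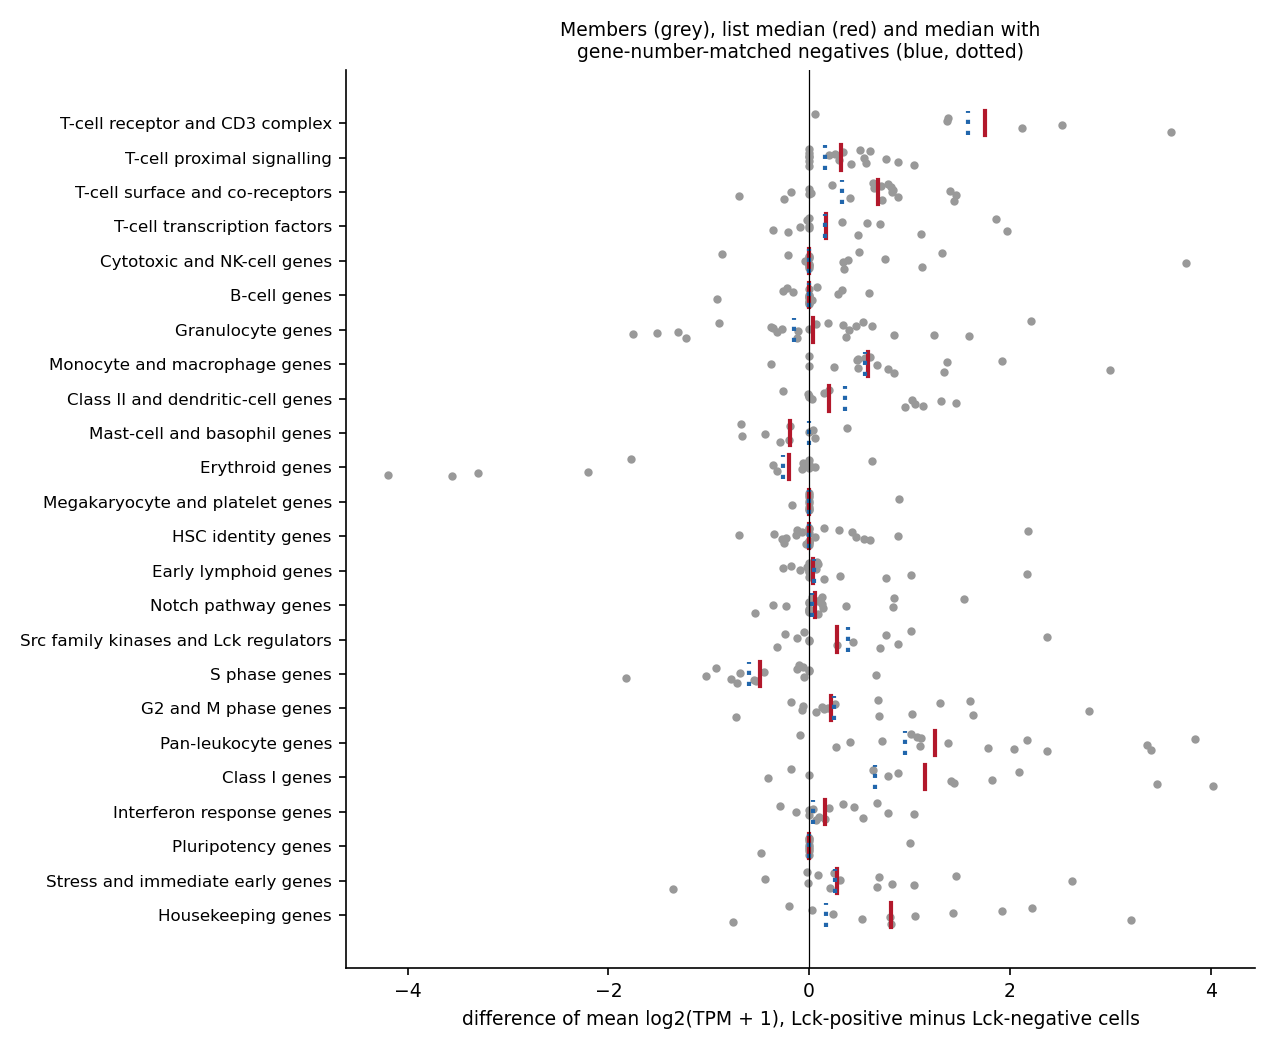
Difference of mean log2(TPM + 1) between 13 Lck-positive and 34 Lck-negative Eng_ES-HSC cells for the members of 24 gene lists (grey points), with the list median in red and the median against 13 matched Lck-negative cells in dotted blue. The median of the receptor and CD3 list was 1.75, that of the granulocyte list 0.03 and that of the erythroid list -0.20, with 4 globins at -2.20 to -4.20.

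General leukocyte genes differed as well. Of 16 pan-leukocyte genes, 12 were higher by at least 1 log2 unit, with a median of 1.25 and of 0.95 against matched cells. Coro1a, an actin regulator of leukocytes, was detected in 7 of 13 and 10 of 34 cells with a difference of 3.41 (3.73 against matched cells), and the tetraspanin Cd53 in 8 of 13 and 9 of 34 cells with a difference of 3.37. Ptprc, which encodes CD45, the phosphatase that activates Lck, was detected in 5 of 13 and 8 of 34 cells, led by cell 12 at 2574 TPM, with a difference of 2.37 (2.43 against matched cells). Of 12 class I genes 6 were higher, the list median being 1.15. It was 0.66 against matched cells and 0.40 among cells with at least 1000 genes. H2-K1 was detected in all 13 Lck-positive and 20 of 34 Lck-negative cells. Of the 12 housekeeping genes 5 were higher, a count near that of the class I genes. Their median was 0.81, which was 0.17 against matched cells and -0.72 among cells with at least 1000 genes. The list of 58 T-cell genes stood at 0.28 and 0.31 in those same settings.

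Cell division genes went in both directions. Of 16 genes of S phase, Mcm6 and Pcna were lower, and the median was -0.49. It was -0.60 against matched cells and -1.80 among cells with at least 1000 genes. Mcm6, part of the replication helicase, was detected in no Lck-positive cell and in 10 of 34 Lck-negative cells, a difference of -1.82. Of 16 genes of G2 and M phase 5 were higher, led by Birc5, an inhibitor of apoptosis that also serves mitosis, at 2.79. Their median was 0.22, and it was 0.24 against matched cells but -0.20 among cells with at least 1000 genes. Mki67 differed by -0.73, with detection in 4 of 13 and 9 of 34 cells.

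Early lymphoid and Notch genes differed little at the list median, by 0.04 and 0.06, and by 0.05 and 0.03 against matched cells. Of 16 early lymphoid genes, 2 were higher by at least 1 log2 unit and none were lower, the largest difference being 2.17. Against matched cells 1 was higher. The summed TPM of that list had a median of 485 in Lck-positive and 41.1 in Lck-negative cells. Rag1, the recombinase of developing lymphocytes, was listed at 0 in all 47 cells, and Rag2 did not pass 4.61 TPM in any cell. Dntt, which adds bases at antigen receptor joints, was found in cell 11 alone at 968 TPM. Of 20 Notch pathway genes, Adam10, a protease that cleaves Notch receptors, was alone past 1 log2 unit, at 1.54. Its difference was 0.75 against matched cells, 0.49 among cells with at least 1000 genes and 0.98 without cell 25. Notch1 was detected in 1 Lck-positive cell at 1.5 TPM, and its target Hes1 in 2 Lck-negative cells.

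By size of difference, with a mean of at least 10 TPM and detection in at least 50% of the cells in the higher set, the highest genes were Gimap6 (4.30), Actr2 (4.28), H2-K1 (4.03), Canx (3.88), Tmsb4x (3.85), Eef2 (3.81), Ccl5 (3.76), Gpx4 (3.65), Cd3d (3.61), H2-D1 (3.47), Coro1a (3.41) and Cd53 (3.37). Gimap6, a GTPase of lymphocytes, stood at 6028 TPM in cell 12, 1098 in cell 11, 1016 in cell 25 and 503 in cell 33. It lay between 4.97 and 165 TPM in cells 20, 21, 22, 37 and 49, and was not detected in cells 1, 8, 9 and 26. It was detected in 7 of 34 Lck-negative cells and did not pass 137 TPM there. Actr2 (an actin nucleator), Canx (an endoplasmic reticulum chaperone), Eef2 (an elongation factor) and Gpx4 (a lipid peroxidase) are used in most cell types. Against matched cells Tmsb4x, thymosin beta 4, fell to 0.64, while Gimap6 stood at 3.85 and Canx at 3.69. Among cells with at least 1000 genes Canx stood at -0.04.

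The lowest genes by the same rule included Mt1 (-4.20), Hba-a2 (-4.20), Hba-a1 (-3.56), Rbm33 (-3.37), Hbb-bs (-3.30), Wtap (-3.08), Cd24a (-2.59), Tma7 (-2.51), Ogfrl1 (-2.44), Slx1b (-2.28) and Gclm (-2.11). Mt1, a metallothionein that binds zinc and copper, was detected in 1 of 13 and 17 of 34 cells, up to 224 and 40699 TPM. Cd24a, a surface protein of immature blood cells, was detected in 3 of 13 and 18 of 34 cells. Ogfrl1 and Slx1b were detected in all 47 cells. Their differences against matched cells were -1.09 and -1.33, and Ogfrl1 stood at 0.57 among cells with at least 1000 genes.

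**Figure D4:**
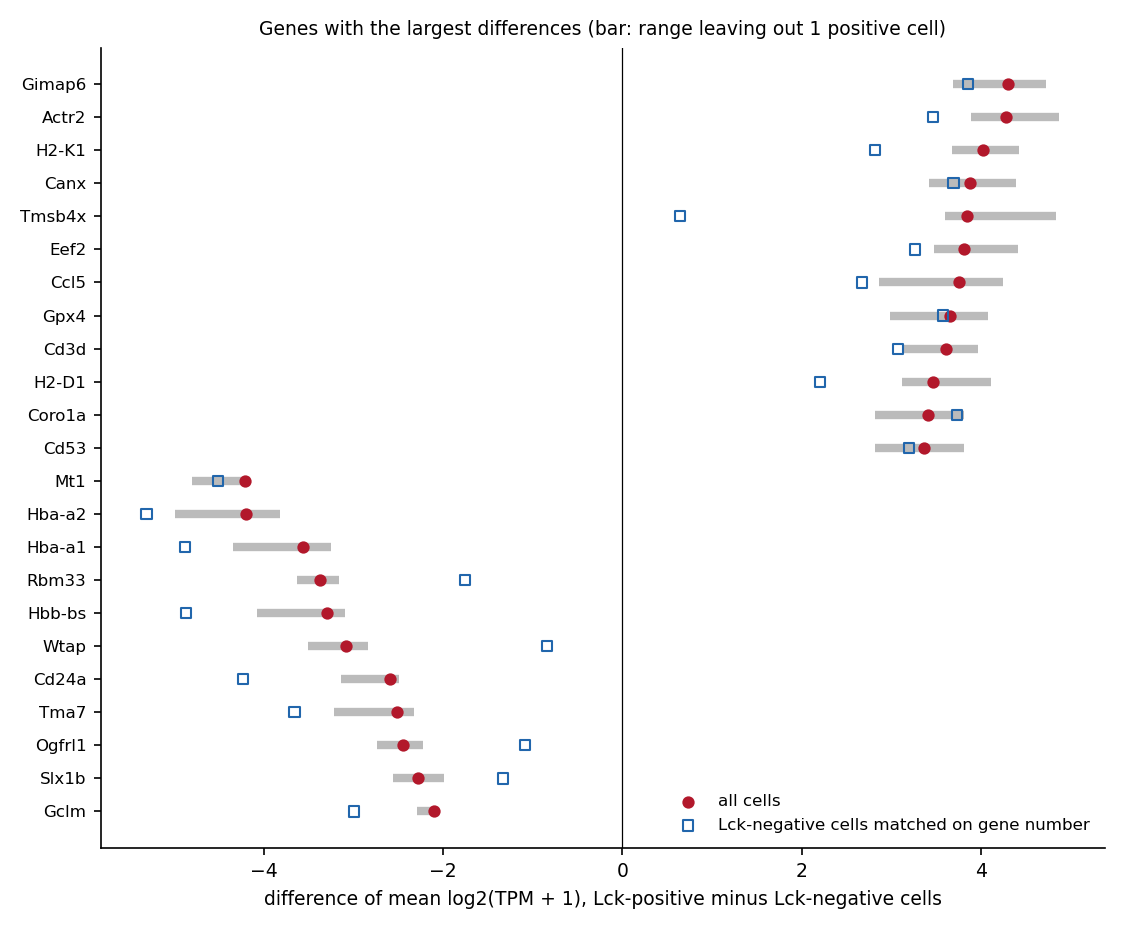
Difference of mean log2(TPM + 1), Lck-positive minus Lck-negative Eng_ES-HSC cells, for the genes named among the 12 with the largest difference in each direction (red points), the range when 1 Lck-positive cell is left out (grey bars) and the difference against matched Lck-negative cells (blue squares). Tmsb4x moved from 3.85 to 0.64 and Wtap from -3.08 to -0.84 with matching, while the globins moved farther from 0.

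Genes were also ranked by how closely they followed Lck over the 47 cells, among 3549 genes. The closest were F10 (Spearman's rho 0.68), Plekha2 (0.63), Oas3 (0.62), Stxbp6 (0.54), Ocstamp (0.54), Rasa1 (0.54), Foxn3 (0.54), Cr1l (0.54), Lgr5 (0.54) and Mms19 (0.53). F10 was detected in 7 of 13 and 2 of 34 cells, and Plekha2 in 11 of 13 and 8 of 34 cells. Gimap6 ranked 13 with a rho of 0.53, Cd3e ranked 18 and Cd3d ranked 19, each with a rho of 0.49, and Cd3g ranked 24 with 0.47. S100a8 ranked 2288 with a rho of -0.00, Mpo ranked 3296 with -0.16 and Elane ranked 3326 with -0.18. All points share 1 library code in the labels, and with 34 cells at 0 these values mainly describe which genes were detected with Lck.

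Some Lck-negative cells carried T-cell genes at levels like those of Lck-positive cells. Cell 43 held Cd3e at 424 TPM, Cd3g at 15.1, Gata3 at 103 and Ms4a4b, a membrane protein of T cells, at 4249 TPM. Cell 45 held Cd2 at 24936 TPM, Ccl5 at 13134 and Cd3g at 703, with 807 genes detected. Cells 43 and 45 also held granulocyte genes, led by S100a9 at 21989 TPM in cell 43 and Camp at 2382 TPM in cell 45. Cell 29 held 17 T-cell genes beside Elane at 9338 TPM and Mpo at 14566 TPM. Summed over the list, T-cell genes other than Lck had a median of 1233 TPM in Lck-positive cells (20.7 to 10491) and 72.2 TPM in Lck-negative cells (0 to 26999). Granulocyte genes summed to a median of 433 TPM (4.76 to 537354) and 7270 TPM (0 to 486263).

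Among ESC, 1 pair of cells was averaged, with a Pearson r of 0.94 against 0.80 for the next closest pair, which left 77. Across the series, Lck was detected in 13 of 47 Eng_ES-HSC cells (27.7%, 15.6 to 42.6) and in 19 of 77 ESC (24.7%, 15.6 to 35.8), while 7 of 94 FL_HSC (7.45%) and 4 of 95 Eng_BM-HSC cells (4.21%) had it. The share in Eng_ES-HSC was thus close to that in ESC, which have no T-cell receptor, but ESC had a median of 5433 detected genes against 973. The levels differed more than the shares. Among cells with Lck the median was 234 TPM in Eng_ES-HSC, 79.5 in Eng_BM-HSC and 7.83 in ESC. A level of 1000 TPM was passed by 5 Eng_ES-HSC cells and by no cell of the other groups. The maxima there were 293 TPM in ESC, 153 TPM in FL_HSC and 624 TPM in Eng_BM-HSC. Higher levels among detected cells were not particular to Lck. The median was 96.7 TPM in Eng_ES-HSC against 5.66 in ESC for Gata3, and 379 against 9.76 for Lat. Cd3e went the other way, at 24.1 TPM against 52.3 in the 1 ESC that had it. The part of gene number in these levels was not tested. A group and its library cannot be told apart, since the labels give 1 library code to all cells of a group and a different one to each group.

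**Figure D5:**
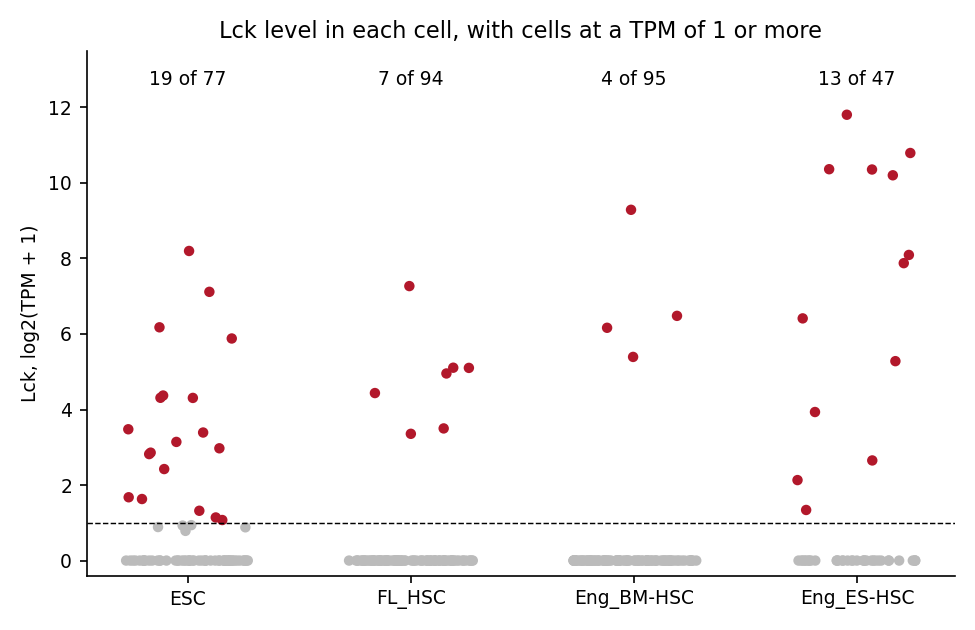
Lck in each cell of the 4 groups, as log2(TPM + 1), with cells at 1 TPM or more in red, other cells in grey, the threshold as a dashed line and the number of detected cells above each group. Eng_ES-HSC and ESC had like shares, 13 of 47 and 19 of 77, while the 5 cells above 1000 TPM were all Eng_ES-HSC.

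Cd3e or Cd3g accompanied Lck in 8 of 13 Eng_ES-HSC cells, in 3 of 19 ESC, and in 0 of 7 FL_HSC and 0 of 4 Eng_BM-HSC cells. The number of T-cell genes other than Lck did not separate these cells in the same way, with medians of 7 in Eng_ES-HSC, 5 in ESC, 7 in FL_HSC and 6.5 in Eng_BM-HSC, at medians of 1068, 5583, 4537 and 2860 detected genes. Without Lck, Cd3e or Cd3g was found in 3 of 34 Eng_ES-HSC, 6 of 58 ESC, 0 of 87 FL_HSC and 0 of 91 Eng_BM-HSC cells. Cd3d was more widely detected, in 48 of 77 ESC, 14 of 94 FL_HSC and 27 of 95 Eng_BM-HSC cells. Gimap6 was detected in 91 of 94 FL_HSC with a median of 464 TPM and in 70 of 95 Eng_BM-HSC with a median of 20.1 TPM, so it was common in HSC of this series. Cd2 was detected in 11 of 47 Eng_ES-HSC, 2 of 77 ESC and in no cell of the other 2 groups, and Ccl5 in 19, 1, 0 and 4 cells of Eng_ES-HSC, ESC, FL_HSC and Eng_BM-HSC.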

How the data were processed

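The series is 1 table of 22073 rows for 316 single cells: 21970 mouse genes, 92 ERCC spike-ins and 11 reporter or selection cassettes. Its deposited values are natural logs of an abundance plus 1. This reading rests on exp(x) - 1, which sums to between 414503 and 897968 in the 47 Eng_ES-HSC cells, as TPM with rows left out could, and no label states the base. HISAT 0.1.6, Salmon 0.3.2 and GRCm38 are named in the submitters' processing notes, with no role given. TPM was rebuilt as exp(x) - 1 and compared as log2(TPM + 1), pseudocount 1, which understates changes of low genes. Low genes were not filtered, and doublets were not called. A value of 0 means listed at 0.

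The cells, the Lck threshold and the 24 gene lists were chosen with earlier results of these data known. Of 63 T-cell list genes 58 had rows that were used, and Trac, Trbc1, Trbc2, Trdc and Carmil2 were not analysed here. Named genes were the 12 largest differences in each direction with a mean of at least 10 TPM and detection in 50% of cells of the higher set, the 10 genes most like Lck among those detected in at least 5 cells, and list members. Some genes that these rules name are not reported here, but they stay in the counts and medians. Predicted, mitochondrial, ribosomal, small RNA and spike-in rows and Lck were skipped. Each Lck-positive cell was matched to the unused Lck-negative cell nearest in gene number. A share of 0 was given the limit of 3 cells. The difference of means was checked by scaling chosen genes in a random split of the Lck-negative cells. The other steps were not checked in that way. Python 3.11.15, pandas 2.3.3 and scipy 1.17.1 were used. Coordinates came from GENCODE, in which 21067 gene symbols matched.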

Additional observations from a re-analysis of the deposited data

Results flagged for a closer look

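A reporter row outside the comparison held a signal. The eGFP row was detected in 2 of 13 Lck-positive Eng_ES-HSC cells, cell 8 at 2754 TPM and cell 20 at 472 TPM, and in 0 of 34 Lck-negative cells, which allows up to 8.82%. In the other groups it was detected in 0 of 77 ESC, 0 of 95 Eng_BM-HSC and 1 of 94 FL_HSC cells, the last at 38.6 TPM. Cells 8 and 20 also held YFP, at 294 and 130 TPM. The YFP row was detected as well in Lck-negative cell 29 at 4.79 TPM and in 1 FL_HSC cell at 20.2 TPM. The eGFP and YFP sequences are close to each other, so reads can be divided between their rows. Cells 8 and 20 were both above 50% mitochondrial and held 12 and 19 T-cell genes other than Lck. The labels do not say which cells carried a reporter.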

How the results depend on the processing

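The median over T-cell genes kept its sign under every alternative run and the median over granulocyte genes did not. With Lck-negative cells matched on gene number the medians were 0.28 for T-cell genes and -0.15 for granulocyte genes, 553 genes were lower, and 76.9% and 100% of those cells held 3 or more T-cell and granulocyte genes. With cells of at least 1000 genes the values were 0.31, -0.49, 1448 lower genes, 83.3% and 91.7%, and Canx turned to -0.043 and Ogfrl1 to 0.57. With at least 500 genes the granulocyte median was -0.48, 386 genes were higher and 581 lower, and the shares were 72.7% and 90.9%. Of the 668 higher genes, 482 were also higher with matched cells and 350 with cells of at least 1000 genes, where 62 were lower. A pseudocount of 0.1 gave a T-cell median of 0.86 with 1552 higher and 411 lower genes, and a pseudocount of 10 gave 0.15, 196 and 59. The log2 of mean TPM gave 0.83, 2540 and 3147, and turned Cd2 to -3.24, Ngp to -0.15 and S100a9 to 1.02. A limit of 2 log2 units left 118 higher and 21 lower genes. An Lck threshold of 5 TPM gave a granulocyte median of -0.070, and 10 TPM turned S100a9 to 0.19. Counting near-identical cells separately gave a granulocyte median of 0.28. Without cells over 50% mitochondrial, chosen after seeing the data, the medians were 0.30 and 0.33. Leaving out 1 Lck-positive cell at a time moved the T-cell median between 0.32 (without cell 25) and 0.56, the granulocyte median between -0.28 (without cell 22) and 0.23 (without cells 8 or 20), the higher genes between 555 and 762 and the lower genes between 179 and 263. The cause of these moves was not tested. Of 94 list and share values 64 stayed within tolerance, 30 moved and 0 were labelled reversed. That label was open only to the T-cell median. Counts and shares could not take it, nor could the granulocyte median, which started too near 0, at 0.03, and did change sign. Of 657 single-gene values 463 stayed, 188 moved and 6 reversed a difference of at least 1 log2 unit. No paired analysis was possible because the numbers in the titles name cells, each group is 1 sample and no test was made.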
